A study of Mus musculus with 36 samples.

Results

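Vegfa, Vegfb, Vegfc and Pgf encode secreted ligands of the vascular endothelial growth factor (VEGF) family, Kdr and Flt1 encode its receptor tyrosine kinases, Nrp1 encodes a co-receptor, Apln encodes the peptide ligand apelin and Aplnr its receptor. The 9 genes were chosen by symbol and were all found among the 20720 genes of the count tables. They were described in the cells that can send and the cells that can receive these signals after cardiac ischemia, by surgery and by day.

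Male C57BL/6 mice of 8 weeks were operated on, and live single cells from the left ventricle were sorted into plates for SORT-seq, in which each polyadenylated transcript is captured at its 3′ end and labelled with a random tag, the unique molecular identifier (UMI). Ischemia-reperfusion (IR), a ligation of the left anterior descending coronary artery that was released after 1 hour, was sampled on 9 plates at day 1, 7 at day 3 and 3 at day 14, and sham surgery on 4 plates at day 1 and 8 at day 14. Myocardial infarction (MI), in which the ligation was permanent, was sampled on 5 plates at day 3. No genotype beyond the strain and no drug is named for any group, and the tissue was the infarcted region (infarct and border zone for MI, per the study's methods) and, in sham hearts, the matching region. The mouse behind each plate is not given and plates can share a mouse, so that p values describe the spread between plates. By the study's methods, which give 3 hearts per condition for MI and its sham, the 5 MI plates hold cells of fewer mice than plates, and the p values of MI comparisons are too small. No day 3 sham group was analysed here, and day 3 was compared with the mean of both sham groups. The MI plates carry their own protocol label, so the surgery and a library batch cannot be told apart.

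Plates held 176614 to 3341774 UMIs after sham, 285252 to 5551870 after IR and 3713893 to 5289230 after MI. Wells with at least 1000 UMIs of nuclear genes were kept as cells, 3146 in all, and replicate 2 of IR day 3 had 0 of them. MI cells were deeper, with a median of 13120 UMIs against 2217 to 3230 in the other groups. The median share of mitochondrial UMIs per group was 71.9% to 72.1% after sham, 34.6% at day 1, 49.3% at day 3 and 73.95% at day 14 of IR and 10.5% at MI, and its part in the results was not tested. Replicates 2 and 7 of day 14 sham held the same plate and were counted as 1 sample (called replicate 7), which leaves 3101 cells. Some wells also matched between other plates: 17 wells of IR day 1 replicate 9 matched replicate 5 of that group (9 of them kept as cells), 5 matched replicate 8 (0 kept), and 16 wells of day 14 sham replicate 2 matched IR day 3 replicate 6 (10 kept). Leaving these wells out of the first-named plate of each pair changed no call of the 9 genes. Cells were clustered without the 9 genes, and clusters were named from marker lists as cardiomyocyte-like (1115 cells), endothelial-like (377), fibroblast-like (316) and macrophage-like (622). Values per plate are UMIs of a gene per 1000000 UMIs of that class on that plate (CPM), for plates with at least 5 cells of the class. Fold changes are log2 values with their standard error (SE) from edgeR's quasi-likelihood test on these sums, adjusted over all genes tested, with a threshold of 0.05.

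VEGF-A is released by muscle and stromal cells when oxygen is short and acts on endothelial cells, where KDR (VEGFR2) drives migration and division and FLT1 (VEGFR1) mainly holds ligand back from KDR. VEGF-B and placental growth factor, the product of Pgf, bind FLT1, and VEGF-C acts mostly through FLT4 on lymphatic vessels. NRP1 binds VEGF-A together with KDR and binds class 3 semaphorins. Apelin is made by endothelial cells at the tips of growing vessels and binds the G protein-coupled receptor APLNR on neighbouring cells, and in the heart it also raises contractility.

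The genes lie on chromosome 17 (Vegfa, 46016993 to 46032369, minus strand), 19 (Vegfb, 6982473 to 6987651, minus), 8 (Vegfc, 54077606 to 54187096, plus, and Nrp1, 128358604 to 128503363, plus), 12 (Pgf, 85166635 to 85177790, minus), 5 (Kdr, 75932827 to 75978458, minus, and Flt1, 147561604 to 147726011, minus), X (Apln, 48025146 to 48034853, minus) and 2 (Aplnr, 85136225 to 85139923, plus) of GRCm38, as annotated by GENCODE vM21. RefSeq promoter windows (GRCm38.p6) matched 8 of the 9 genes, and Aplnr had no entry. Apln and Vegfa are the ligands with the largest fitted fold changes below, for Vegfa on 3 MI UMIs. Kdr and Flt1 are the receptors read beside them. The 250 bases before the start of these 4 genes are shown. All are written 5′ to 3′ on the gene's strand (the last 3 bases of the Kdr window lie inside the GENCODE gene), and capitals mark GCGTG or its reverse complement CACGC. The other motif searched was ACGTG or its reverse complement CACGT, and together these are the cores of the element that hypoxia-inducible factor (HIF) binds.
Apln, chrX:48034854-48035103: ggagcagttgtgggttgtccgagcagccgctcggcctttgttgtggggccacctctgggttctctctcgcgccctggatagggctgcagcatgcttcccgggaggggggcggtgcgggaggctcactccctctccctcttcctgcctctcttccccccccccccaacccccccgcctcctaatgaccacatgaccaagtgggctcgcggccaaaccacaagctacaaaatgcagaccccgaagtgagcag
Vegfa, chr17:46032378-46032627: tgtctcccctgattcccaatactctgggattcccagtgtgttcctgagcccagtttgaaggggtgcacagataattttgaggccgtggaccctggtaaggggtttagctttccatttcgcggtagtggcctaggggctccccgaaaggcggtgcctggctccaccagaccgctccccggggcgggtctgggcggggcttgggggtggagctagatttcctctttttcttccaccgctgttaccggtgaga
Kdr, chr5:75978456-75978705: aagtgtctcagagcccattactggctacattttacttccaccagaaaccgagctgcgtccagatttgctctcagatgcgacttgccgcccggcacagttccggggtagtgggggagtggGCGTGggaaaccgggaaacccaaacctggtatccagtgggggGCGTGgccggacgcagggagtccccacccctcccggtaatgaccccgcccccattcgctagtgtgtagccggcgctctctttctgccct
Flt1, chr5:147726012-147726261: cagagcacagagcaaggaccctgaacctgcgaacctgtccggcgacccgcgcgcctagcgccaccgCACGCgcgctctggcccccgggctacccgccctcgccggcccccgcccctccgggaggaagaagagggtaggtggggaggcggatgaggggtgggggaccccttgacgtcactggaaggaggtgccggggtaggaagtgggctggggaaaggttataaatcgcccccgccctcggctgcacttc
Neither motif was found in the Apln window and the Vegfa window shown, GCGTG stood 2 times in the Kdr window and 1 time, on the other strand, in the Flt1 window. Vegfa has a second RefSeq window (chr17:46025164-46025413), not shown because most of it lies in exons of the gene, which held each motif 1 time. Either motif was found in 38.6% of all 32851 promoter windows of this length (ACGTG in 16.6%, GCGTG in 28.2%), so such matches are common. The 4 windows were richer in G and C (59.2% for Vegfa, 61.6% for Kdr, 65.2% for Apln and 70.4% for Flt1) than the median window (52.4%). These matches are a description of the letters and do not show binding.

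The receptors and apelin were found mainly in endothelial-like cells, VEGF-A in every large class, and VEGF-B mainly in cardiomyocyte-like cells. Endothelial-like cells gave 12.2% of all UMIs of the kept cells, but 83% of the 1464 Kdr UMIs, 80.3% of the 2339 Flt1 UMIs, 86.4% of the 861 Aplnr UMIs, 67.8% of the 1329 Apln UMIs and 57.3% of the 881 Pgf UMIs. Of these endothelial-like UMIs, 267 of Pgf and 320 of Apln lay in 3 wells of over 100000 UMIs. Those wells also held markers of other classes, so the share of Pgf rests largely on them. Cardiomyocyte-like cells gave 14.8% of all UMIs, 57.0% of the 2505 Vegfb UMIs and 35% of the 4978 Vegfa UMIs. Fibroblast-like cells (29.1% of all UMIs) held 61.2% of the 738 Vegfc UMIs, 34.7% of Vegfa and 28.6% of Pgf. Nrp1 was the most widely found of the 9, with 15188 UMIs, of which 43.2% were in macrophage-like cells (37.5% of all UMIs), 27.7% in endothelial-like, 16.3% in fibroblast-like and 8.11% in cardiomyocyte-like cells. These shares follow the number and depth of the cells sorted, and the deep MI cells of the immune and stromal classes weigh most.

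**Figure D1:**
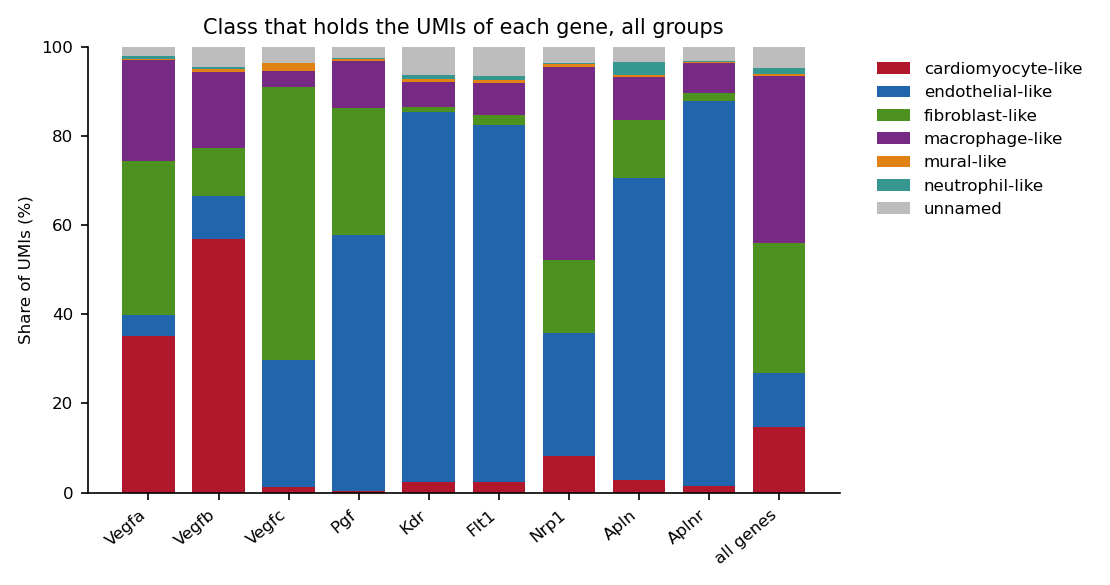
Share of the UMIs of each gene (y axis, %) held by each cell class, all groups together, with the last bar giving the share of all genes' UMIs. Endothelial-like cells held 83% of Kdr and 86.4% of Aplnr UMIs against 12.2% of all UMIs.

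The class that held Vegfa changed with surgery and day. In day 1 sham, cardiomyocyte-like cells held 82.0% of the 572 Vegfa UMIs (95% exact binomial interval 78.6% to 85.1%) and in day 14 sham 88.5% of 270 (84.1% to 92.1%). At IR day 1, cardiomyocyte-like cells held 2.97% of 740 Vegfa UMIs, fibroblast-like cells 60.8% (57.2% to 64.3%) and macrophage-like cells 25% (21.9% to 28.3%). Cardiomyocyte-like cells were then also few, with 31 of 502 kept cells against 232 of 432 in day 1 sham. At IR day 3 they again held 77.4% of 579 Vegfa UMIs and at IR day 14 90.8% of 618. At MI, fibroblast-like cells held 53.5% of 2199 Vegfa UMIs (51.4% to 55.6%), macrophage-like cells 39.7% (37.7% to 41.8%) and cardiomyocyte-like cells 0.227%. Of the 721 kept MI cells, 132 were fibroblast-like, 280 macrophage-like and 19 cardiomyocyte-like, with means of 53206, 27760 and 12094 UMIs per cell. All these shares of Vegfa follow the number and depth of the cells of each class as well as the level per cell. Intervals cover counting error only.

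In cardiomyocyte-like cells, Vegfa was lower at IR day 1 and at MI day 3 than in sham. Day 1 sham plates had 294, 831, 554 and 662 CPM, and the 5 day 14 sham plates had 380, 303, 1276, 290 and 424 CPM. IR day 1 plates had 290, 54.3 and 212 CPM, all below the lowest day 1 sham plate, and rested on 16 UMIs in all. Its log2 fold change was -2.14 ± 0.54 (adjusted p = 0.00441), and 12.8% of the 4272 genes tested in this class were called in that comparison. Over all genes tested the median was -0.57 there, and with the relative log expression (RLE) scaling, which put that median at 0.09, Vegfa was at -1.49 with an adjusted p of 0.0752. The call was also lost without IR day 1 replicate 2 (-1.72, adjusted p = 0.0552). On a count of UMIs over the plates, the IR day 1 level was 0.365 times that of sham (95% interval 0.207 to 0.599). Cardiomyocyte markers of these cells summed to a median of 70990 CPM in day 1 sham plates and 35501 at IR day 1. Neutrophil markers summed to 146 CPM (4 of 6 with a UMI) and 847 (6 of 6), macrophage markers to 67.1 and 290, and fibroblast markers to 476 and 979.5. Their part in the Vegfa difference was not tested.

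At MI day 3, the 2 plates with enough cardiomyocyte-like cells had 38.0 CPM (3 UMIs) and 0 CPM of Vegfa, below every sham plate. The log2 fold change against sham was -5.03 ± 0.78 (adjusted p = 2.12e-07, 36.2% of genes called), and the 3 UMIs gave a ratio of 0.0514 (0.0106 to 0.151). Against the IR day 3 plates, which had 0, 316, 296, 923 and 355 CPM, MI was lower by -4.51 ± 0.81 (adjusted p = 1.51e-05, 23.1% of genes called). The fitted fold depends on the plate with 0 UMIs: without MI replicate 2 it was -9.66 against sham and -9.22 against IR day 3, and both adjusted p stayed under the threshold, but that arm is then 1 plate with 0 Vegfa UMIs, assumed to vary like the other groups. In the MI plates neutrophil markers summed to a median of 28.97 CPM, macrophage markers to 204, fibroblast markers to 1355 (476 in day 1 sham and 364 at day 14) and cardiomyocyte markers to 59392. At least 3 markers of another class were found in 18 of the 19 MI cells, 10 of 31 of IR day 1 and 20 of 232 of day 1 sham. The part of these in the difference was not tested. IR day 3 itself, at -0.52 ± 0.31 against sham (adjusted p = 0.388, 6.41% of genes called; -1.52 and adjusted p = 0.00415 without cells with 3 markers of another class), and IR day 14, with 323, 367 and 520 CPM (adjusted p = 1, 0.187% of genes called), did not pass the test. The effect of IR at day 1 differed from that at day 14 by -2.14 ± 0.67 (adjusted p = 0.0372, 6.41% of genes called in this interaction contrast), a call that 15 of 30 alternatives lost.

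**Figure D2:**
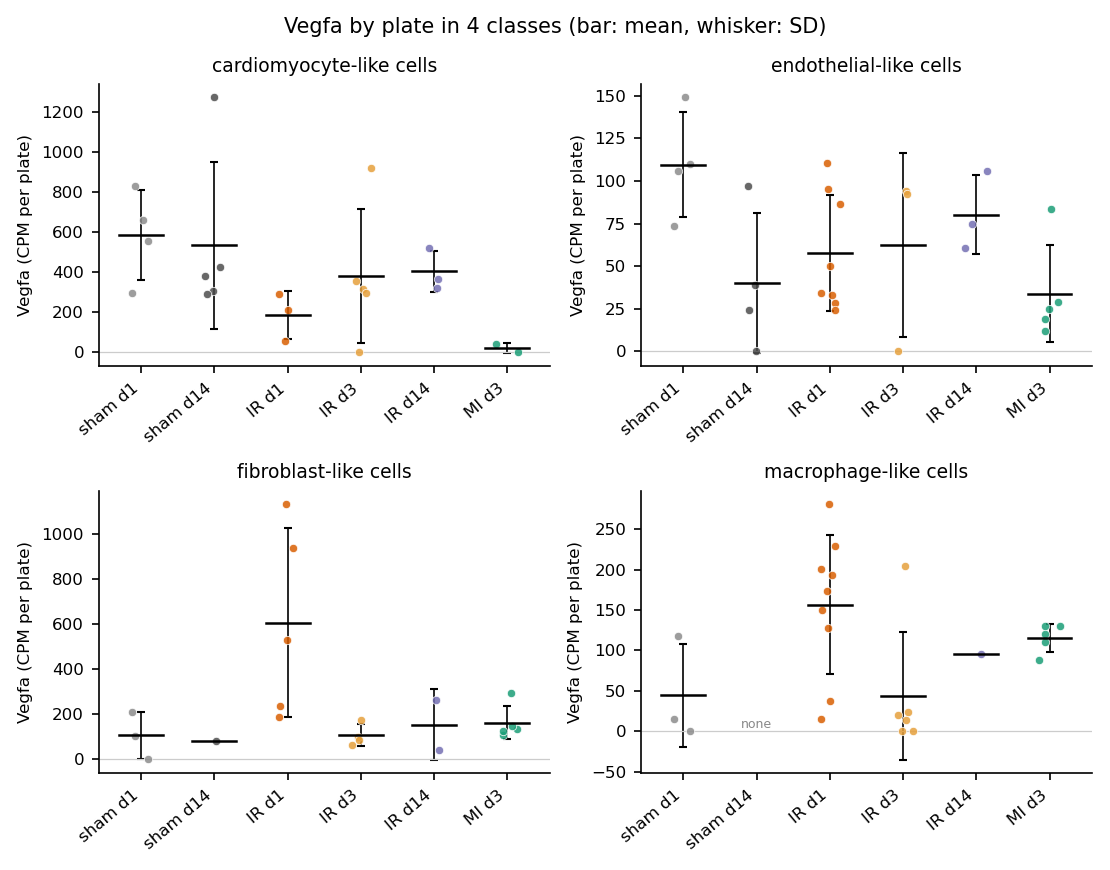
Vegfa in 4 cell classes by group (x axis), in CPM per plate (y axis, points), with the mean (bar) and SD (whisker). In cardiomyocyte-like cells the 2 MI plates lie at 38.0 and 0 CPM, and in fibroblast-like cells the IR day 1 plates reach 1134 CPM.

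Within the cardiomyocyte-like class, Vegfa was concentrated in 1 small cluster. Cluster 14, led by Lgals4, Myh7b and the nuclear non-coding RNA Neat1, held 994 of the 1744 Vegfa UMIs of the class in 100 cells, at a pooled level of 1249 CPM. Clusters 1, 2 and 5 were at 144, 274 and 107 CPM. The level in cluster 14 was 1447 CPM after sham surgery at day 1 and 1425 at day 14, and after IR 1210 at day 3 and 1033 at day 14, with intervals (counting error only) that overlap between neighbours in this order. The cluster held 35 of 232 cardiomyocyte-like cells in day 1 sham, 3 of 31 in IR day 1 and 0 of 19 in MI. Without cluster 14 the fall of Vegfa remained past the threshold at IR day 1 (-2.04, adjusted p = 0.0277) and at MI against sham (-3.88, adjusted p = 4.1e-05) and against IR day 3 (-3.63, adjusted p = 0.000408), an alternative chosen after seeing the data.

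All 19 MI cardiomyocyte-like cells and 24 of the 31 at IR day 1 lay in cluster 5, led by Sprr1a, Nppa, Nppb, Acta1 and Ankrd1, genes known to rise in stressed myocardium. In that cluster alone, Vegfa was at 80.4 CPM at IR day 1 (interval 32.3 to 166), 130 at IR day 3 (101 to 165), 180 at IR day 14 (110 to 278) and 21.8 at MI (7.07 to 50.8). Sham had too few cells there to give a level. The MI interval lies below those of IR day 3 and IR day 14 and overlaps that of IR day 1, on 5 Vegfa UMIs in the MI cells.

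Fibroblast-like cells carried more Vegfa at IR day 1. Sham plates had 210, 102 and 0 CPM at day 1 and 78.4 CPM on the single day 14 plate, and IR day 1 plates had 186, 1134, 530, 235 and 936 CPM, so that 4 of the 5 lay above every sham plate. On 4 of these 5 plates a single cell held 50.0% or more of the Vegfa UMIs, and 75.9% at most. The log2 fold change at day 1 was 2.49 ± 0.69 (adjusted p = 0.0124), with 19.6% of the 6166 genes tested in this class called. The plates at 1134 and 936 CPM are replicates 5 and 9, which share matched wells, and without those wells of replicate 9 the difference was 2.61 (adjusted p = 0.0101). Leaving out day 1 sham replicate 3 or replicate 4 put the adjusted p at 0.0567 and 0.0626. IR day 3 plates were back at 61.1, 95.04, 174 and 84.7 CPM, below all IR day 1 plates, and IR day 3 against day 1 was -2.42 ± 0.55 (adjusted p = 0.00257, 23.3% of genes called). With plates of at least 10 cells the IR day 1 arm is 1 plate, the one at 186 CPM, assumed to vary like the other groups, and that difference was -1.03 (adjusted p = 0.364). MI plates had 132, 106, 291, 146 and 125 CPM, and against sham the 0.93 difference did not pass (adjusted p = 0.391), with 18.2% of genes called.

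Clusters of the class differed in Vegfa. Cluster 6, led by Cxcl5, Timp1 and Tnc, held 44 of the 54 fibroblast-like cells of IR day 1, 36 of 73 of IR day 3 and 131 of 132 of MI, but 0 of 25 of day 1 sham. Its Vegfa level was 503 CPM (interval 457 to 552) at IR day 1, 95.7 at IR day 3 and 167 at MI. Cluster 16, led by Pi16 and Htra3, held most sham cells and was at 119 CPM in day 1 sham, 119 (51.4 to 234) at IR day 1 and 160 at IR day 3. The fibroblast markers summed to a median of 59325 CPM in day 1 sham plates, 14099 at day 1 and 73317 at day 3 of IR and 33303 at MI, and their part in the Vegfa difference was not tested.

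Macrophage-like cells carried Vegfa at IR day 1 and at MI day 3 and less at IR day 3. IR day 1 plates ranged from 15.3 to 281 CPM with a median of 173 (9 plates), IR day 3 plates from 0 to 204 with a median of 16.9 (6 plates), and MI plates had 110, 88.2, 130, 120 and 130 CPM. MI lay above 5 of the 6 IR day 3 plates, and the sixth, at 204 CPM, rested on 6 UMIs in 1 cell. MI was higher than IR day 3 by 2.25 ± 0.46 (adjusted p = 0.00179), with 8.5% of the 5116 genes tested called. IR day 3 was lower than IR day 1 by -2.72 ± 0.47 (adjusted p = 7.56e-05, 26.3% of genes called). Against day 1 sham (0, 15.2 and 118 CPM), IR day 1 was at 1.70 ± 0.71 and did not pass (adjusted p = 0.216, 2.48% of genes called). No comparison with day 14 sham could be fitted in this class, since no plate of that group had 5 such cells once replicates 2 and 7 were counted as 1.

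Different macrophage-like clusters filled the groups. Cluster 3, led by Ccr2 and Cd74 among others, held 98 of 115 cells of IR day 1 and 227 of 280 of MI, while cluster 9, led by Gpnmb and Ms4a7, held 141 of 193 cells of IR day 3. Within cluster 3, Vegfa was at 185 CPM at IR day 1 (interval 159 to 214), 59.3 at IR day 3 (31.6 to 101) and 118 at MI (109 to 127), with intervals that do not overlap but cover counting error only, not the spread between plates. Cluster 9 was at 18.6 CPM at IR day 3 and 17.3 at MI. Cluster 12, led by Cd163, Lyve1 and Folr2, which mark resident cardiac macrophages, had a lymphatic marker (Lyve1) and none of the macrophage list among its 10 leading genes. Without it both Vegfa calls held (MI against IR day 3 at 2.22, adjusted p = 0.00334). Neutrophil markers summed to a median of 1038 CPM in macrophage-like cells of IR day 1, 666 in MI and 97.8 in IR day 3, and their part was not tested.

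No difference in Vegfb passed the test in cardiomyocyte-like cells. Day 1 sham plates had 381, 138, 223 and 216 CPM, day 14 sham plates 348, 631, 273, 274 and 361, IR day 1 plates 124, 326 and 185, and MI plates 431 and 339, so that the groups overlapped. On the log2 scale the change was -0.88 ± 0.51 at IR day 1 (adjusted p = 0.248) and -0.39 ± 0.42 at MI (adjusted p = 0.478), and the sign at MI turned to 0.35 without MI replicate 3. The 2 MI plates that held 3 Vegfa UMIs in this class held 49 Vegfb UMIs.

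In endothelial-like cells Vegfb was lower at MI: 38.2, 24.2, 7.29, 35.8 and 24.97 CPM against 94.6, 79.4, 73.3 and 96.5 in day 1 sham and 118, 143, 158 and 363 in day 14 sham, with no overlap. On the log2 scale this was -2.12 ± 0.41 (adjusted p = 0.000133), in a comparison with 36.7% of 3423 genes called. All 8 cardiomyocyte markers were found in endothelial-like cells, and their sum moved with it, at a median of 12760 CPM at day 1 and 23241 at day 14 of sham, 2092 at day 1 of IR and 169 at MI. In sham this exceeded the class's own markers, which summed to 8564 and 6943 CPM. More UMIs of another class's markers than of their own were held by 45 of 96 endothelial-like cells of day 1 sham, 9 of 78 of IR day 1, 31 of 48 of IR day 14 and 5 of 57 of MI. Without such cells Vegfb was not among the genes that passed the low-count filter. The part of such cardiomyocyte RNA in the Vegfb difference was not tested. In macrophage-like cells Vegfb rose from IR day 1 (0 to 56.6 CPM, mean 16.8) to IR day 3 (mean 57.5), by 1.83 ± 0.43 (adjusted p = 0.00204). At least 3 markers of another class were found in 69 of the 115 cells of IR day 1 and 173 of the 193 of IR day 3. Over all groups Vegfb was at 28.4 CPM in cluster 3, which held most cells of IR day 1, and 61.8 in cluster 9, which held most of IR day 3. The part of these, or of cardiomyocyte RNA, in the rise was not tested.

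Vegfc, the lymphatic ligand, was low in every class. In fibroblast-like cells its mean was 21.8 CPM in day 1 sham, 58.8 on the day 14 sham plate, 75.6 at IR day 1, 65.1 at IR day 3, 30.2 at IR day 14 and 47.1 at MI, and the difference of IR day 1 from sham (1.73 ± 0.78) did not pass the test (adjusted p = 0.118). In endothelial-like cells, where it did not pass the filter on low counts, the group means ran from 41.8 to 74.6 CPM, and those of Vegfa, which did not pass it there either, from 33.8 to 110. Day 1 sham fibroblast-like plates held 3 Vegfc UMIs, which gives a ratio of IR day 1 to sham of 3.18 with an interval of 1.02 to 15.98.

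Apln was close to 0 in endothelial-like cells of day 1 sham and was higher at IR day 1 and MI. Day 1 sham plates had 0, 0, 4.07 and 8.77 CPM (2 UMIs in all) and day 14 sham plates 0, 130, 106 and 0 CPM. The 8 IR day 1 plates ranged from 60.4 to 1474 CPM with a median of 376, all above every day 1 sham plate. On replicates 4, 6, 7 and 9 all Apln UMIs (10, 31, 86 and 226) lay in 1 cell each, and replicate 6 is the plate at 1474 CPM. The log2 fold change was 6.87 ± 1.06 (adjusted p = 3.35e-05), and the pooled counts gave a ratio of 171 with an interval of 47.0 to 1415. Of the 3423 genes tested, 17.1% were called in that comparison.

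MI plates had 200, 387, 634, 89.4 and 300 CPM of Apln, 4 of the 5 above every sham plate. Against sham the log2 fold change was 4.40 ± 0.77 (adjusted p = 3.34e-05), and the pooled ratio was 14.1 (8.29 to 26.0). IR day 3 plates had 0, 360 and 46.2 CPM and were called higher than sham (3.70 ± 0.96, adjusted p = 0.0354, 1.55% of genes called), but 41 of the 44 UMIs lay in 1 cell of replicate 4, and without that plate the difference was 1.30 (adjusted p = 0.85). Against day 14 sham alone it was 2.03 (adjusted p = 0.408), and leaving out any of 4 sham plates (replicates 1, 2 and 3 of day 1, replicate 1 of day 14) also ended the call, at 3.37 to 3.80. IR day 14 plates, at 24.8, 60.4 and 21.2 CPM, lay inside the range of their sham. The effect of IR at day 1 exceeded that at day 14 by 7.29 ± 1.81 (adjusted p = 0.0373, 1.17% of genes called), a call that 13 of 33 alternatives lost.

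Pgf was called higher in endothelial-like cells at IR day 1 and MI, as Apln was. Its day 1 sham plates had 0, 0, 20.4 and 35.1 CPM and day 14 sham plates 6.94, 0, 0 and 0, while IR day 1 plates ranged from 14.2 to 601 CPM with a median of 180 (8 plates) and MI plates had 64.4, 187, 292, 106 and 125. On IR day 1 replicates 1, 4, 6 and 9 all Pgf UMIs (1, 2, 6 and 130) lay in 1 cell each. Every MI plate and 7 of the 8 IR day 1 plates lay above every sham plate. Its log2 fold change was 4.02 ± 0.76 at IR day 1 (adjusted p = 0.000333, pooled ratio 23.8 with an interval of 12.3 to 52.5) and 4.12 ± 0.78 at MI (adjusted p = 9.76e-05, pooled ratio 10.9 with an interval of 5.81 to 23.1). At IR day 3, with 0, 68.6 and 0 CPM, it did not pass (2.24 ± 1.26, adjusted p = 0.4). MI against IR day 3 called 0 of the 7 genes tested in this class with edgeR (1 at an unadjusted p under 0.05) and 0 with DESeq2, beside 4.97% of all genes, with Pgf at 1.87 ± 0.93 (adjusted p = 0.297).

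**Figure D3:**
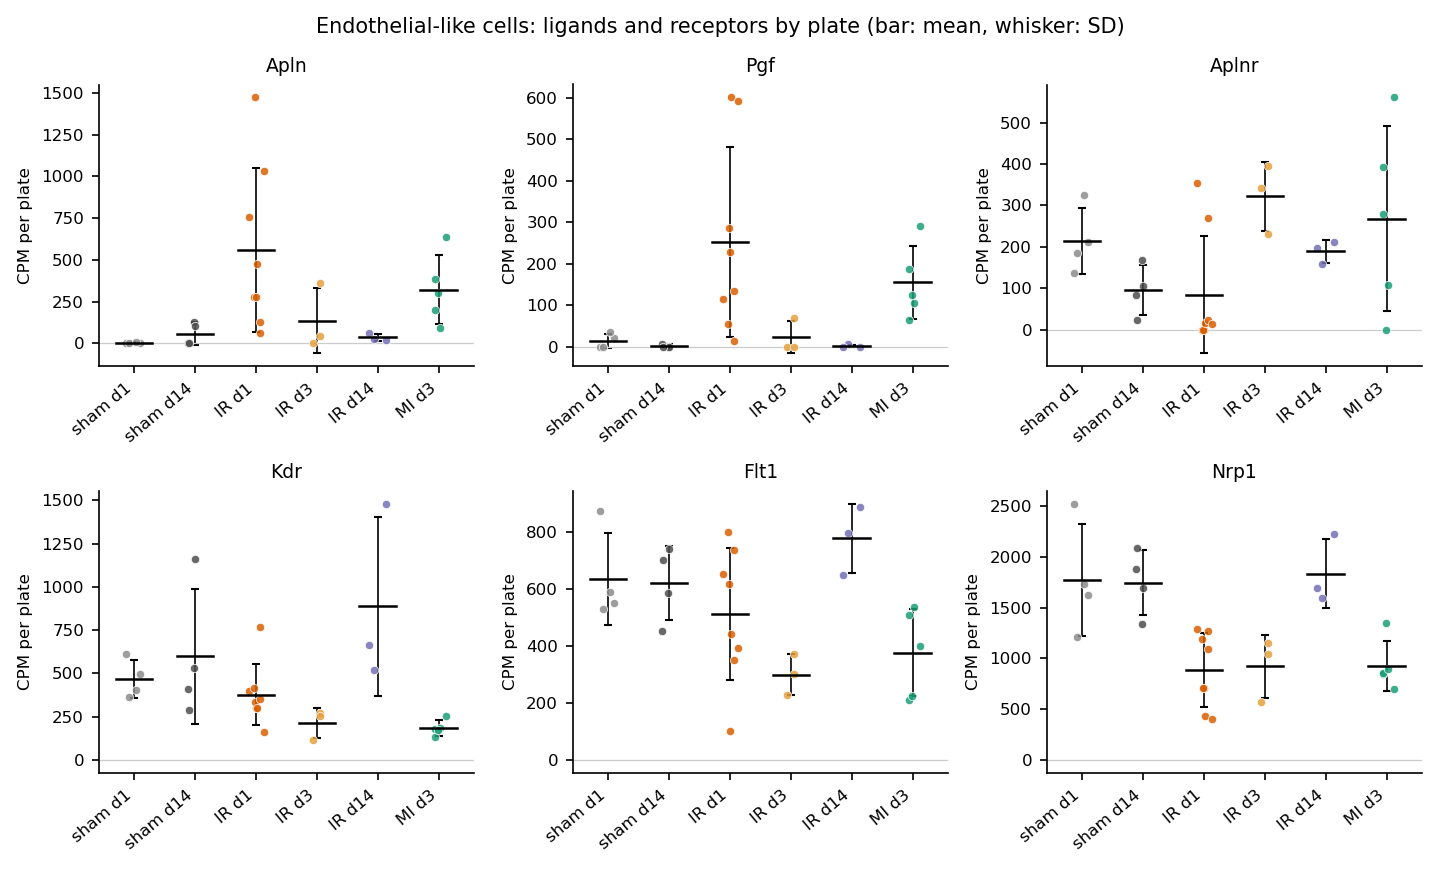
Ligand and receptor genes in endothelial-like cells by group (x axis), in CPM per plate (y axis, points), with the mean (bar) and SD (whisker). Apln ranges from 60.4 to 1474 CPM at IR day 1 against 0 to 8.77 in day 1 sham, and Kdr lies at 130 to 255 CPM in MI. The Apln UMIs of the plate at 1474 CPM lie in 1 cell.

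A few deep wells carried much of the IR day 1 signal. An endothelial-like well of replicate 7 (137429 UMIs) held 86 Apln and 107 Pgf UMIs and one of replicate 9 (190460 UMIs) held 226 and 130, together 312 of the 444 Apln and 237 of the 278 Pgf UMIs of the IR day 1 plates. Both wells held all 8 endothelial markers (840 and 1043 UMIs) and all 8 mural markers (121 and 621 UMIs), and 6 neutrophil markers (130 and 597 UMIs). Cardiomyocyte markers gave 510 and 114 UMIs in them, fibroblast markers 30 and 96, and macrophage markers 44 and 87. Without the wells of over 100000 UMIs, 19 in all classes, Apln was at 6.08 (adjusted p = 0.000464) and Pgf at 2.53 (adjusted p = 0.0204) at IR day 1, and at MI they were at 4.43 and 4.16, all still called. This alternative was chosen after seeing the data.

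Counted per cell, Apln was found in 2 of 96 endothelial-like cells of day 1 sham, 4 of 64 of day 14 sham, 21 of 78 of IR day 1, 3 of 34 of IR day 3, 3 of 48 of IR day 14 and 30 of 57 of MI. After each cell was thinned to 1000 UMIs, the shares were 1.04%, 1.56%, 15.4%, 2.94%, 2.08% and 24.6%. In cardiomyocyte-like cells, a class with little Apln, thinned shares were 0% to 1.07% in the groups other than IR day 1, where 1 of 31 cells had a UMI. The sham, IR day 3 and IR day 14 shares of endothelial-like cells are 1 cell each and cannot be told from that background, although at IR day 3 a single cell held 41 Apln UMIs before thinning. Median depths were 3466, 3159, 3480, 3270, 3822 and 16807 UMIs in endothelial-like cells in the same order. Thinned shares for Pgf were 0%, 0%, 10.3%, 2.94%, 0% and 24.6%, against 0% to 0.476% in cardiomyocyte-like cells. Of the 377 endothelial-like cells, 34 held both Apln and Pgf, and 29 held both Apln and Aplnr while 34 held Apln alone of that pair and 106 Aplnr alone. Cells that held both were deeper, with a median of 9809 UMIs for Apln with Pgf and 21384 for Apln with Aplnr, against 4003 over all these cells.

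Apln was found in both main endothelial-like clusters at IR day 1. Cluster 4, led by Cd300lg, Kdr and Gpihbp1, which are expressed by capillaries, held 80 of 96 cells of day 1 sham and 33 of 78 of IR day 1, and cluster 11, led by Plvap, Vwf and Selp, with Apln also among its leading genes, held 42 of 78 of IR day 1 and 51 of 57 of MI. The pooled Apln level in cluster 4 was 4.12 CPM in day 1 sham and 674 at IR day 1, and in cluster 11 it was 530 at IR day 1 and 324 at MI, and at IR day 3 it was 510, with 41 of the 43 UMIs in 1 cell. Pgf was at 360 CPM in cluster 4 and 370 in cluster 11 at IR day 1, and at 148 CPM in cluster 11 at MI. The deep well of replicate 9 held 226 of the 264 Apln and 130 of the 141 Pgf UMIs of cluster 4 at IR day 1, and without it the levels there were 189 and 54.7 CPM. Without the deep well of replicate 7, cluster 11 was at 475 CPM of Apln and 135 of Pgf. The third cluster of the class (36 cells) had a mural marker and none of the endothelial list among its 10 leading genes, and without it the Apln and Pgf calls at IR day 1 and MI held (Apln 6.77 and Pgf 3.91 at IR day 1, 4.27 and 3.95 at MI).

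In cardiomyocyte-like, fibroblast-like and macrophage-like cells, Apln was low. Cluster 10, named neutrophil-like from its markers (157 cells), was at 91.3 CPM of Apln in pooled counts, with 30 of its 37 UMIs in 1 cell. Fibroblast-like sham plates had 0 Apln UMIs and IR day 1 plates 32, which puts the level at least 2.21-fold higher than a floor of 3 sham UMIs, and the test did not pass (adjusted p = 0.112). Pgf in fibroblast-like cells was uneven, at 569, 0 and 72.7 CPM in day 1 sham and 21.9, 689, 14.5, 23.5 and 192 at IR day 1. A single cell held 59 of the 62 Pgf UMIs of the plate at 689 CPM.

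Neither Kdr nor Flt1 was called higher in endothelial-like cells. Kdr plates of day 1 sham had 610, 362, 497 and 404 CPM and of day 14 sham 409, 532, 1161 and 291, and MI plates had 181, 130, 255, 183 and 175, all below every sham plate. Kdr was lower at MI by -1.47 ± 0.33 (adjusted p = 0.000663). IR day 1 plates ranged from 160 to 766 CPM with a median of 341 and overlapped sham (-0.38, adjusted p = 0.471), and IR day 3 plates, at 114, 274 and 254 CPM, lay below every sham plate but did not pass (-1.12 ± 0.44, adjusted p = 0.194). In cluster 4 alone, Kdr was at 527 CPM in day 1 sham, 603 in day 14 sham, 337 at IR day 1, 398 at IR day 3 and 840 at IR day 14. The 6 MI cells of cluster 4 give no level of their own, since 1 well (426261 UMIs, 52 of 85 Kdr UMIs) held more UMIs of fibroblast (2053) and mural (1085) markers than of endothelial ones (850), and without it the level went from 177 to 623 CPM. Without the deep well of IR day 1 replicate 9 the IR day 1 level went from 337 to 522 CPM. Over the whole class, Kdr at MI was still called without the wells of over 100000 UMIs (-1.37, adjusted p = 0.000782). Cluster 11, which held most MI cells, was at 333 CPM at IR day 1, 178 at IR day 3 and 178 at MI, and in day 1 sham its 6 cells held 4 Kdr UMIs (124 CPM, interval 33.7 to 317). The clusters filled the groups unequally, and the part of this in the Kdr difference was not tested.

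For Flt1, the decoy receptor, no difference passed the test in endothelial-like cells. It was at 872, 529, 550 and 588 CPM in day 1 sham plates, 451, 584, 739 and 703 in day 14 sham plates and 508, 212, 401, 537 and 225 in MI plates. The MI difference was -0.70 ± 0.30 and missed the threshold (adjusted p = 0.0684), while DESeq2 (-0.74, adjusted p = 0.0328), RLE scaling (-0.79, adjusted p = 0.0396) and the fit without wells of over 100000 UMIs (-0.75, adjusted p = 0.0489) passed it. IR day 1 (-0.37, adjusted p = 0.457) and IR day 3 (-1.06 ± 0.42, adjusted p = 0.197) did not pass.

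Aplnr, the receptor of apelin, was not called in any comparison of endothelial-like cells. The day 1 sham plates had 137, 185, 212 and 325 CPM and day 14 sham plates 83.2, 169, 106 and 24.2. IR day 1 plates ranged from 0 to 355 CPM with a median of 15.1, where 6 of the 8 plates were at 24.2 or below and the other 2 were at 269 and 355 (-1.29 ± 0.67, adjusted p = 0.187). Without IR day 1 replicate 3 the difference was -2.32 (adjusted p = 0.0161). IR day 3 plates had 342, 394 and 231 CPM (1.01 ± 0.76, adjusted p = 0.551) and MI plates 279, 393, 561, 109 and 0 (0.90 ± 0.58, adjusted p = 0.234). Thinned shares of cells with an Aplnr UMI were 19.8% in day 1 sham, 8.97% at IR day 1, 20.6% at IR day 3 and 17.5% at MI, against at most 0.431% in cardiomyocyte-like cells.

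Nrp1 was lower in endothelial-like cells at IR day 1 and MI. Day 1 sham plates had 2523, 1208, 1621 and 1728 CPM and day 14 sham plates 1880, 1337, 1689 and 2083. IR day 1 plates ranged from 401 to 1294 CPM with a median of 903 and MI plates had 849, 852, 700, 891 and 1348. The log2 fold change was -1.04 ± 0.31 at IR day 1 (adjusted p = 0.0174) and -0.95 ± 0.30 at MI (adjusted p = 0.0132), but the first was lost without day 1 sham replicate 1 (-0.86, adjusted p = 0.0829) and both were lost without cells that held more UMIs of another class's markers (-1.03, adjusted p = 0.0642, and -0.81, adjusted p = 0.12). In cluster 4, Nrp1 was at 1867 CPM in day 1 sham and 873 at IR day 1, or 1416 without the deep well of replicate 9. The MI level there rests on 6 cells and went from 584 to 2190 CPM without the same well of 426261 UMIs that sets Kdr there. Cluster 11 was at 658 CPM at IR day 1 and 988 at MI, and its 6 day 1 sham cells held 27 Nrp1 UMIs, 23 of them in 1 cell. Without the wells of over 100000 UMIs both calls of the class held (-0.96, adjusted p = 0.0316, and -0.76, adjusted p = 0.0418).

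Nrp1 was lower at IR day 1 in fibroblast-like cells as well and moved with the day in macrophage-like cells. Fibroblast-like plates had 450, 711 and 763 CPM in day 1 sham and 241, 55.6, 123, 78.4 and 33.8 at IR day 1, with no overlap (-2.40 ± 0.42, adjusted p = 0.000349). At IR day 3 they had 183, 227, 323 and 360 CPM, higher than at IR day 1 by 1.39 ± 0.39 (adjusted p = 0.0111), a call that 5 of 22 alternatives lost. Among these were plates of at least 10 cells, where IR day 1 is the 1 plate at 241 CPM (0.20), and the fit without IR day 3 replicate 7 (1.04, adjusted p = 0.0889). MI plates, at 290, 228, 308, 290 and 283 CPM, lay below every sham plate but missed the threshold (-1.05 ± 0.37, adjusted p = 0.0515). At MI against sham, edgeR called 0 of the 6 genes tested in fibroblast-like cells (1 at an unadjusted p under 0.05) beside 18.2% of all genes, and DESeq2 called 1, Nrp1 (-1.10, adjusted p = 0.0173). The fibroblast-like Nrp1 level in cluster 16, which holds sham cells, was 691 CPM in day 1 sham and 223 at IR day 1 in pooled counts, without a test.

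In macrophage-like cells, Nrp1 ranged from 39.0 to 679 CPM with a median of 151 at IR day 1 and from 408 to 830 with a median of 616 at IR day 3, higher by 1.39 ± 0.39 (adjusted p = 0.00747). Without cluster 12 the difference was 1.79 (adjusted p = 0.00155), and without cells with 3 markers of another class 1.53 (adjusted p = 0.409), with 1 IR day 3 plate left. MI plates had 491, 586, 526, 640 and 560 CPM and did not differ from IR day 3 past the threshold (-0.19). The day 1 sham plates had 244, 671 and 1440 CPM, and IR day 1 against them was -1.63 ± 0.49 (adjusted p = 0.069). Between days 1 and 3 of IR, Nrp1 was called higher and Vegfa lower in macrophage-like cells and, with the limits given above, in fibroblast-like cells. Cluster 3 held most macrophage-like cells at IR day 1 and cluster 9 at IR day 3, with Nrp1 at 473 and 738 CPM over all groups. The part of this in the Nrp1 difference was not tested.

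In cardiomyocyte-like cells, Nrp1 was lower at MI. Sham plates had 255, 193, 331 and 367 CPM at day 1 and 329, 139, 91.1, 113 and 190 at day 14, and MI plates had 88.7 (7 UMIs) and 136 (6 UMIs), which overlapped day 14 sham. Its log2 fold change was -1.90 ± 0.57 against sham (adjusted p = 0.00639) and -1.86 ± 0.60 against IR day 3 (adjusted p = 0.0156), and the pooled ratio to sham was 0.411 (0.217 to 0.711). With either MI plate left out both calls were lost, at -1.24 and -1.57 against sham, where the 1 plate left (6 cells) is assumed to vary like the other groups, and the second also with DESeq2 (-1.69, adjusted p = 0.0542) and without IR day 3 replicate 4 (-1.36) or 7 (-1.48). In cluster 5, Nrp1 was at 397 CPM at IR day 3 (345 to 454) and 82.7 at MI (49.8 to 129). The cardiomyocyte-like class of MI rests on 19 cells, and its median summed level of cardiomyocyte markers was 59392 CPM against 70990 in day 1 sham and 35501 at IR day 1.

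**Figure D4:**
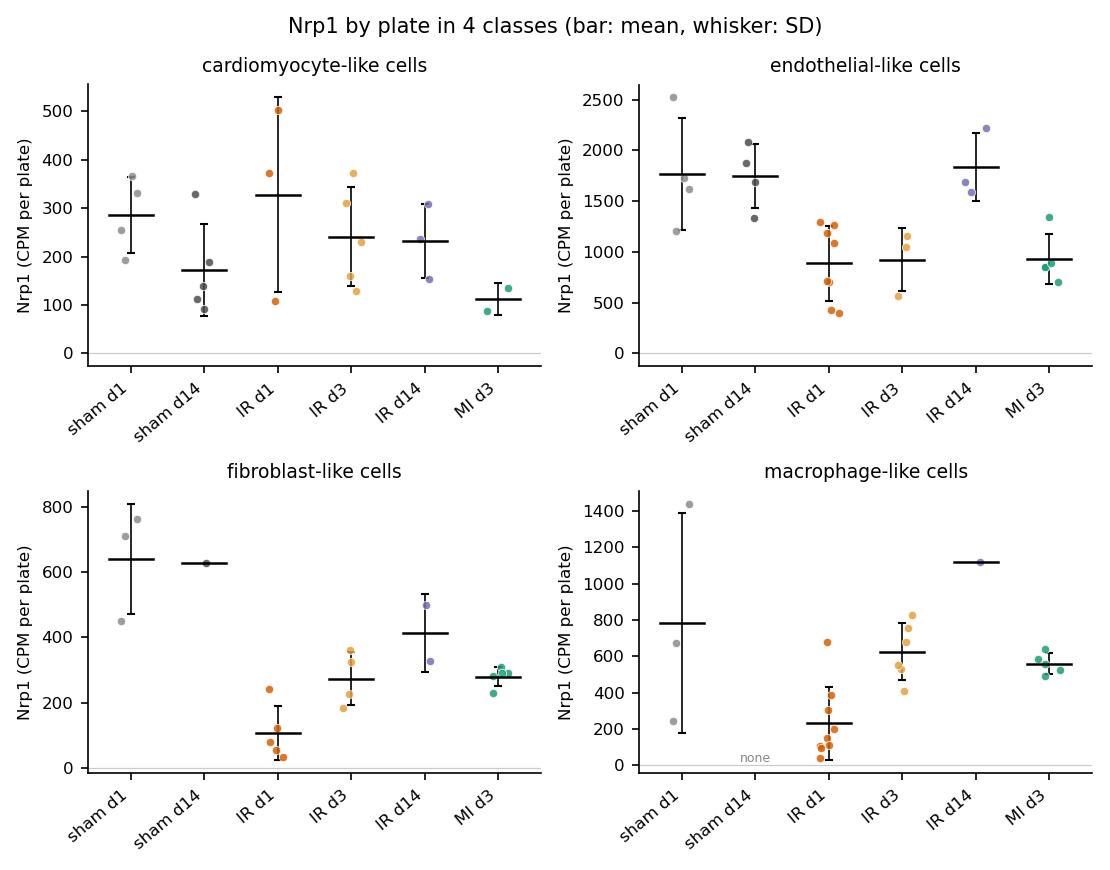
Nrp1 in 4 cell classes by group (x axis), in CPM per plate (y axis, points), with the mean (bar) and SD (whisker). Fibroblast-like IR day 1 plates lie at 33.8 to 241 CPM against 450 to 763 in day 1 sham, and macrophage-like plates have a median of 151 CPM at IR day 1 and 616 at IR day 3.

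At day 14 of IR, 0 of the 3 genes tested in cardiomyocyte-like cells and 0 of the 7 in endothelial-like cells were called, with edgeR or DESeq2, and 0 were at an unadjusted p under 0.05. Over all genes in cardiomyocyte-like cells edgeR called 0.187% (8 of 4272) and DESeq2 1 gene. Over all genes in endothelial-like cells edgeR called 0% (0 of 3423, 174 of them at an unadjusted p under 0.05) and DESeq2 0 as well (167 at an unadjusted p under 0.05). Kdr plates had 521, 665 and 1481 CPM against 409, 532, 1161 and 291 in day 14 sham (0.80 ± 0.42, adjusted p = 0.906). Endothelial-like Nrp1 plates had 1594, 1691 and 2221 CPM and Aplnr plates 159, 196 and 212.

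Summed over all kept wells of a plate, where fewer cells of a class and less RNA per cell cannot be told apart, Kdr and Flt1 were lower at IR day 1, IR day 3 and MI, Aplnr at IR day 1 and MI, and Nrp1 at IR day 1. Of the 9 genes, IR day 1 against sham called Apln (5.53) and Pgf (2.32) higher and Aplnr (-2.20), Flt1 (-1.08), Kdr (-1.19), Nrp1 (-1.49) and Vegfb (-2.25) lower, with 36.5% of 9309 genes called. IR day 3 called Flt1 (-2.88) and Kdr (-2.74) lower (29.6% of genes called). MI called Apln higher (2.13) and Aplnr (-1.24), Flt1 (-2.09), Kdr (-3.11), Vegfa (-1.17) and Vegfb (-2.64) lower (56% of genes called). Nrp1 did not pass at IR day 3 (adjusted p = 0.222) or MI (adjusted p = 0.0871), nor Aplnr at IR day 3 (adjusted p = 0.242), and at IR day 14 Kdr, Flt1, Nrp1 and Aplnr were at 0.22 to 0.37 and did not pass (adjusted p = 0.869 to 0.958). MI against IR day 3 called Vegfb alone (-2.06, 17.4% of genes called).

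Oxygen-regulated genes were called in both comparisons of macrophage-like cells in which Vegfa was. Cluster 3 held most of these cells at IR day 1 and MI and cluster 9 at IR day 3, and the part of this was not tested. Of 14 listed genes of oxygen sensing and HIF targets, 10 were tested in macrophage-like cells, and MI against IR day 3 called 4 higher and 1 lower, with a median of 0.70 against -0.02 over all genes and 8.5% of all genes called. Slc2a1, the glucose transporter GLUT1, was higher by 2.75 ± 0.36, Egln3, a HIF prolyl hydroxylase that HIF induces, by 3.42 ± 0.58, Hif1a by 1.42 ± 0.28 and the mitophagy gene Bnip3 by 1.46 ± 0.44, while Epas1, which encodes HIF-2α, was lower (-1.86 ± 0.39). IR day 3 against day 1, a comparison that shares the IR day 3 plates, called 5 lower (Egln3 at -4.12 ± 0.59, Slc2a1 at -3.66 ± 0.36, Hif1a at -2.19 ± 0.27, Bnip3 at -2.04 ± 0.43 and P4ha1) and Epas1 higher (2.11 ± 0.49), with a median of -0.95 against 0.04 over all genes and 26.3% of them called.

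In endothelial-like cells, 8 of the list were tested. At IR day 1, Slc2a1 (4.13 ± 0.67), Hif1a (1.48 ± 0.32) and the collagen prolyl hydroxylase gene P4ha1 (1.47 ± 0.52) were higher and Ndrg1 lower (-0.83 ± 0.29). At MI, Slc2a1 (2.71 ± 0.54) and Hif1a (1.02 ± 0.29) were higher and Epas1 (-1.78 ± 0.26), Bnip3 (-1.65 ± 0.39) and Egln1 (-1.41 ± 0.34) lower. These are 4 and 5 of the 8, where 17.1% and 36.7% of all genes were called, and the medians were 0.11 and 0.17, against 0.05 and 0.10 over all genes. The cardiomyocyte markers found in endothelial-like cells, given above with Vegfb, fell in the same comparisons. The part of such RNA in these calls, and in that of Hspb1 in endothelial-like cells below, was not tested. Slc2a1 was also called in fibroblast-like cells at IR day 1 and at MI, where sham plates held 1 UMI, with ratios of 18.9 (3.30 to 753) and 15.6 (2.78 to 615), and P4ha1 was higher at MI (1.76 ± 0.46). Of the 13 tested in that class, IR day 1 called 1 higher and 0 lower and MI 2 higher and 1 lower, where 19.6% and 18.2% of all genes were called. IR day 3 against day 1, in which Vegfa was called lower in this class, called 0 of them higher and 1 lower, beside 23.3% of all genes.

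In cardiomyocyte-like cells, where Vegfa was lower, edgeR called 0 of the 9 tested higher. At IR day 1, 3 were lower: Bnip3 (1 UMI against 191, ratio 0.0560, 0.00141 to 0.316), Egln1 (-2.20 ± 0.67) and Epas1 (3 UMIs against 103, ratio 0.312, 0.0632 to 0.936), with a median of -0.96 against -0.57 over all genes and 12.8% of genes called. At MI, where 36.2% of genes were called and the list's median was 0.26 against -0.23 over all genes, 3 were lower, among them Epas1 (-1.65 ± 0.57) and P4ha1 (1 UMI against 100, ratio 0.122, 0.00306 to 0.695). Slc2a1, the other one, had 0 UMIs on the MI plates against 37, which is at least 1.01-fold lower. Of 8 listed genes of VEGF receptor signalling, 3 were tested in cardiomyocyte-like cells, 1 higher at IR day 1 (list median -0.51) and 2 higher at MI (0.97), with 0 lower. Hspb1, a heat shock protein phosphorylated downstream of VEGF receptors, rose in cardiomyocyte-like cells by 3.27 ± 0.44 at IR day 1 and 2.89 ± 0.38 at MI, and the kinase gene Mapkapk2 by 0.97 ± 0.40 at MI.

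**Figure D5:**
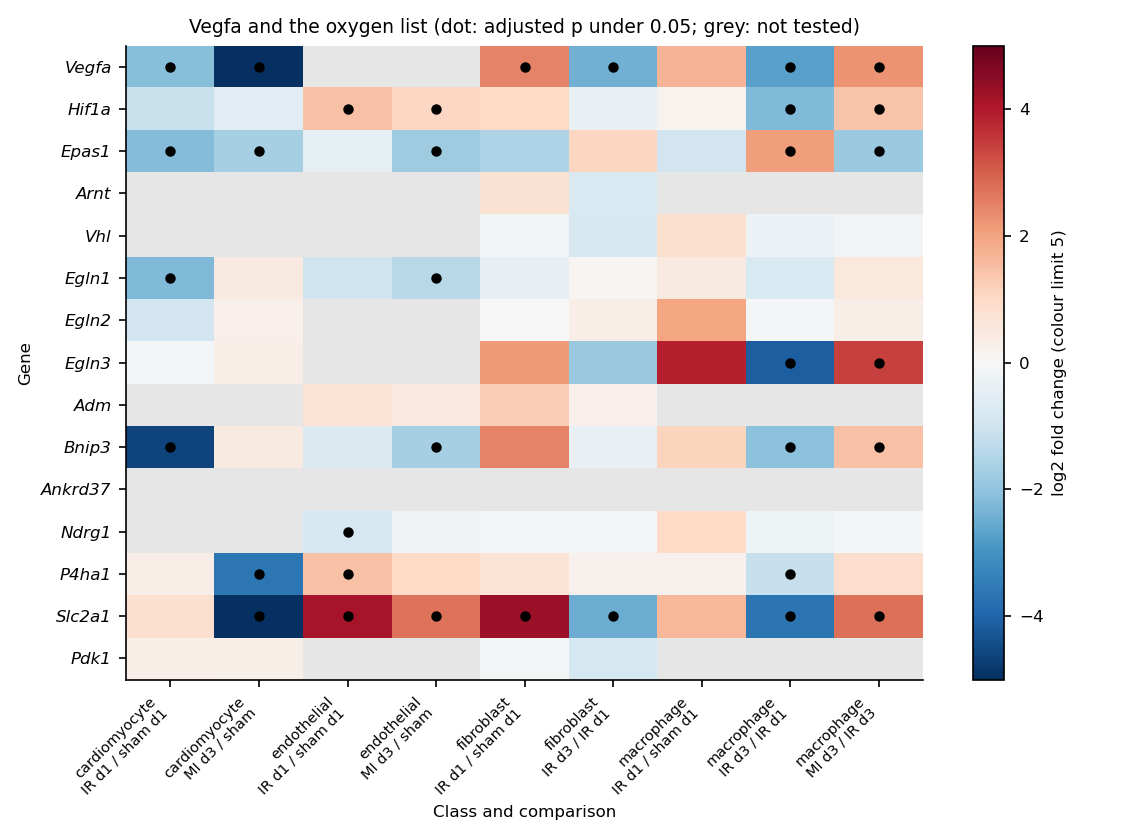
Log2 fold change (colour) of Vegfa and of the oxygen list (y axis) by class and comparison (x axis), with a dot where the adjusted p is under 0.05, grey where not tested, and colours capped at 5. Macrophage-like cells show Slc2a1, Egln3, Hif1a, Bnip3 and Vegfa higher at MI than at IR day 3, and Vegfa at -5.03 in cardiomyocyte-like cells at MI lies past the cap.

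Of 12 genes of angiogenic endothelium, 11 were tested in endothelial-like cells. At IR day 1, Angpt2, a vessel-destabilising ligand of TIE2, was higher (2.76 ± 0.80) and Eltd1 (-1.16 ± 0.27) and Tie1 (-0.99 ± 0.28) were lower, with a median of -0.08 (0.05 over all genes, 17.1% of them called). At MI, Nos3, the endothelial nitric oxide synthase (1.04 ± 0.36), and the Notch ligand Dll4 (0.98 ± 0.33) were higher, and Hey1 (-2.38 ± 0.58), Eltd1 (-1.27 ± 0.27) and Tek (-0.84 ± 0.29) lower, with a median of 0.21 (0.10 over all genes, 36.7% called). Of the 3 relatives tested, the VEGF-C receptor gene Flt4 (1.31 ± 0.44) and the semaphorin receptor gene Plxnd1 (1.04 ± 0.36) were higher at MI, and 0 passed at IR day 1. Cluster 11, which held 51 of the 57 MI cells, was enriched for 2 of 4 lymphatic endothelial markers, and the part of this in the Flt4 difference was not tested. Of the 5 genes of VEGF receptor signalling tested, Ptprb (-1.78 ± 0.29), Nck1 (-1.69 ± 0.36) and Hspb1 (-1.37 ± 0.39) were lower at MI and 0 passed at IR day 1. In fibroblast-like cells Nrp2, with 0 UMIs in sham, was at least 2.68-fold higher at MI, Sema3c was lower (-3.26 ± 0.89), and Figf (Vegfd) was lower at IR day 1 (-2.89 ± 0.84) and higher at IR day 3 than at day 1 (2.69 ± 0.67).

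The genes with the most similar patterns were ranked by Pearson's r over 30 points, each a class in a group with at least 10 cells, as log2(CPM + 10). Kdr was closest to Cdh5 (0.971), Robo4 (0.969) and Shank3 (0.965), Flt1 to Shank3 (0.968), Cdh5 (0.964) and Pecam1 (0.963), and Aplnr to Sigirr (0.952), Robo4 (0.934) and Eva1a (0.928). Apln was closest to Upp1 (0.850), Prnd (0.831) and Sh2d5 (0.830), and Pgf to Ppp1r14a (0.892) and Inhbb (0.849). Vegfb was closest to Mlip (0.949), Camta1 (0.949) and Mpc2 (0.943), Vegfc to Ehd2 (0.871), Cnn3 (0.868) and Id3 (0.867), Nrp1 to AW112010 (0.870), Efcab4a (0.858) and Fam84b (0.854), and Vegfa only to Fam73b (0.807), Tmed1 (0.778) and Hspa5 (0.754). The points share plates and depth, and the correlations are a description.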

How the data were processed

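Count tables of SORT-seq, 36 in all, were used as deposited. Per the study's methods and processing notes, the authors mapped reads with BWA to GRCm38 (mm10) and counted UMIs of 6 bases per gene and well, so the deposited counts are whole numbers that were not normalized. Spike-in and mitochondrial rows were removed, wells of at least 1000 UMIs were kept, no doublet caller was run, and cells were clustered without the 9 genes (scanpy 1.11.5, resolution 1) and named from marker lists. UMIs were summed per plate and class (at least 5 cells) and tested with edgeR 4.0.16 (quasi-likelihood, TMM scaling, Benjamini-Hochberg adjustment) in R 4.3.3, and with DESeq2 1.42.0 as an alternative. Tests were checked on simulated data. Intervals are 95% exact Poisson or binomial and cover counting error only. The genes and lists were chosen with earlier results of these data known. Named genes were the 9 members, up to 5 called genes of each list by size per class and comparison, and the 3 genes most like each member, of which 1 is not reported here. Leaving out clusters, deep wells, or cells with more UMIs of another class's markers were alternatives chosen after seeing the data. Macrophage-like comparisons with day 14 sham could not be fitted.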

Additional observations from a re-analysis of the deposited data

Results flagged for a closer look

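In 64 sets of 4 to 9 plates, 1 plate stood apart from the rest in 11. The cut-off flags about 1 in 20 sets of normally distributed values. CPM from few UMIs are not such values, so the 11 cannot be read as more than chance gives. For Pgf in day 14 sham and Apln at IR day 3 only 1 plate held a UMI, and that plate is then always flagged. In cardiomyocyte-like cells of day 14 sham, these were replicate 6 for Vegfa (1276 CPM, 14 UMIs in 7 cells) and replicate 5 for Vegfb (631 CPM). In endothelial-like cells they were day 14 sham replicate 8 for Vegfb (363 CPM), day 14 sham replicate 1 for Pgf (6.94 CPM), IR day 1 replicate 1 for Kdr (766 CPM) and day 1 sham replicate 1 for Flt1 (872 CPM). In fibroblast-like cells MI replicate 3 was highest for Vegfa (291 CPM) and for Vegfc (72.1 CPM), IR day 1 replicate 5 for Pgf (689 CPM) and IR day 3 replicate 7 for Apln (14.1 CPM). In macrophage-like cells IR day 3 replicate 3 was highest for Vegfa (204 CPM).

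The effect of IR differed between day 1 and day 14 for Vegfa in cardiomyocyte-like cells (-2.14 on the log2 scale) and for Apln in endothelial-like cells (7.29), by edgeR's test of the interaction. The first call was lost in 15 of 30 alternatives and the second in 13 of 33.

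Cells of unnamed clusters, which no comparison by class used, held Vegfa at 131 CPM in MI, Pgf at 47.8 CPM and Apln at 67.5 CPM in IR day 1, Apln at 50.4 CPM in MI and Nrp1 at 701 CPM in IR day 14 in pooled counts, each above the counting interval of sham. Different clusters filled these groups. Cluster 7 held 174 of the 182 unnamed cells of MI and 2 of the 54 of day 1 sham, and cluster 8 held 2 and 25. The part of this was not tested.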

How the results depend on the processing

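Of 620 alternatives to the 24 called results of the 9 genes, 556 stayed past the threshold in the same direction, 64 did not pass it and 0 reversed, and 12 results kept their call under every alternative run. The causes of the changes below were not tested. Depth limits Vegfa in cardiomyocyte-like cells of IR day 1 (16 UMIs) and MI (3 UMIs) and Apln in day 1 sham endothelial-like cells (2 UMIs), and the classes of IR day 1 and MI cardiomyocyte-like cells are small. Outside the called results, Vegfb in cardiomyocyte-like cells at MI changed sign, from -0.39 to 0.35, without MI replicate 3 (range with each plate left out -0.44 to 0.35). The filter on cells with 3 markers of another class could not be fitted in endothelial-like or fibroblast-like cells or in any MI comparison, so the calls there were not put to it, and it left 1 plate of IR day 1 in cardiomyocyte-like and 1 of IR day 3 in macrophage-like cells. Plates of at least 10 cells left 1 IR day 1 plate in cardiomyocyte-like and fibroblast-like cells, and leaving out an MI plate left 1 in cardiomyocyte-like cells. Such lone plates are assumed to vary like the other groups. RLE scaling in place of TMM moved the median over all genes tested (log2) by 0.12 to 0.66 in the injury comparisons of cardiomyocyte-like cells other than IR day 14, by -0.27 to -0.16 in the fibroblast-like comparisons with day 1 or both shams, and by -0.11 in endothelial-like cells at MI against IR day 3.

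Among the comparisons whose share of all genes called is given above, counts of genes called moved by over 1.5 times in these cases. Other comparisons are not listed, such as IR day 3 against sham in fibroblast-like cells (92 with edgeR, 236 with DESeq2). In cardiomyocyte-like cells, IR day 1 called 251 with at least 10 cells per plate, 171 in wells of at least 2000 UMIs and 24 without cells with 3 markers of another class. IR day 14 called 1 with DESeq2, 16 without a low-count filter, 1 with plates of a single cell allowed, 5 without the 3-marker cells and 1 at clustering resolution 0.5. IR day 3 called 417 without a low-count filter, 150 against day 14 sham alone, 419 with at least 10 cells, 119 with at least 1 cell and 139 at resolution 0.5. MI called 912 against sham and 618 against IR day 3 at resolution 0.5. The day 1 against day 14 effect called 138 with RLE scaling, 124 with at least 10 cells, 82 in wells of at least 2000 UMIs and 21 without the 3-marker cells. In endothelial-like cells, IR day 1 called 315 without cells that held more UMIs of another class, IR day 3 called 82 with DESeq2, 130 without a low-count filter and 10 against day 14 sham alone, and MI called 1931 without a low-count filter and 763 without the cells of more UMIs of another class. MI against IR day 3 called 102 with at least 10 cells, 267 with at least 1, 13 without the cells of more UMIs of another class and 101 without the third cluster. The day 1 against day 14 effect called 72 with DESeq2, 96 without a low-count filter, 69 with at least 1 cell, 15 in wells of at least 2000 UMIs, 0 without the cells of more UMIs of another class and 23 without the third cluster. In fibroblast-like cells, IR day 1 called 766 and IR day 3 against day 1 called 751 with at least 1 cell per plate, the latter 223 with at least 10, and MI called 252 against day 14 sham alone. In macrophage-like cells, IR day 1 called 255 with DESeq2 and 195 without a low-count filter, MI against IR day 3 called 949 without that filter, and IR day 3 against day 1 called 2048 without it and 13 without the 3-marker cells.

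Vegfa in cardiomyocyte-like cells at IR day 1 lost its call with RLE scaling (-1.49) and without the 3-marker cells (-1.88). Its day 1 against day 14 effect lost the call with RLE scaling (-1.44), at least 10 cells (-2.29), wells of at least 2000 UMIs (-2.88) and without the 3-marker cells (-2.01). Nrp1 in endothelial-like cells lost its call at IR day 1 in wells of at least 2000 UMIs (-0.80) and without the cells of more UMIs of another class (-1.03), and at MI without a low-count filter (-0.87), against day 14 sham alone (-0.87) and without the cells of more UMIs of another class (-0.81). Apln at IR day 3 lost its call against day 14 sham alone (2.03) and without wells of over 100000 UMIs (3.67), and its day 1 against day 14 effect with at least 10 cells (7.68), in wells of at least 2000 UMIs (6.26), without the cells of more UMIs of another class (7.53) and without wells of over 100000 UMIs (6.52).

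Plates of different groups share replicate numbers, but these did not pair the samples: of 55 same-number pairs 2 had a correlation of their deviations over 0.1 (range -0.15 to 0.14). With a replicate block, cardiomyocyte-like cells gave 55 genes at IR day 3, 1025 at MI, 261 at MI against IR day 3 and 97 for the day 1 against day 14 effect, endothelial-like cells 240 at IR day 1 and 0 for that effect, fibroblast-like cells 295 at IR day 1, 563 at MI and 388 at IR day 3 against day 1, and macrophage-like cells 42 at IR day 1, 187 at MI against IR day 3 and 794 at IR day 3 against day 1. Under the block the calls were lost for the day 1 against day 14 effect of Vegfa (-2.28) and Apln (7.47), for Nrp1 in endothelial-like cells at IR day 1 (-0.90) for Nrp1 in cardiomyocyte-like cells at MI against IR day 3 (-1.63), and in fibroblast-like cells for Vegfa at IR day 1 (2.09) and for Vegfa (-1.80) and Nrp1 (1.25) at IR day 3 against day 1.

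With each plate left out in turn, Vegfa in cardiomyocyte-like cells ranged from -2.49 to -1.72 at IR day 1 and from -2.49 to -1.73 for the day 1 against day 14 effect, Apln from 1.30 to 4.73 at IR day 3 and from 5.24 to 7.98 for that effect, Nrp1 in endothelial-like cells from -1.22 to -0.86 at IR day 1 and Vegfa in fibroblast-like cells from 2.04 to 3.06 at IR day 1. Genes called ranged, in cardiomyocyte-like cells, from 242 to 515 at IR day 1, 2 to 11 at IR day 14, 159 to 290 at IR day 3, 649 to 1553 at MI, 271 to 1116 at MI against IR day 3 and 121 to 257 for the day 1 against day 14 effect. In endothelial-like cells they ranged from 7 to 87 at IR day 3, 90 to 185 at MI against IR day 3 and 8 to 73 for that effect, in fibroblast-like cells from 763 to 1289 at IR day 1 and 918 to 1681 at IR day 3 against day 1, in macrophage-like cells from 25 to 152 at IR day 1 and 205 to 441 at MI against IR day 3, and over all wells from 1065 to 1655 at MI against IR day 3.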
